A study of Mus musculus with 4 samples.

Results

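The genes described here are 10 members of the Bcl2 family, the proteins that decide at the mitochondrial surface whether a cell lives or dies by apoptosis. They were chosen by name, as 10 of the 45232 gene rows in each count file, and all 10 were among the 15320 genes that passed the filter on low counts. RNA was sequenced from GFP+ LSK cells, a fraction of blood-forming cells that lacks lineage markers, carries Kit and Sca-1, and holds mouse stem cells and early progenitors. The cells were sorted from mice 3 months after transplantation of GFP+ long-term haematopoietic stem cells. In the Scr group the transplanted cells carried the control, which by convention is a scrambled sequence, and in the miR-99 KD group a knockdown of the microRNA miR-99. Each group had 2 libraries from 2 mice. The labels name no strain, age or vector for the knockdown. Where a sentence gives a pair of values for a group, they are those of library 1 and then library 2; Scr libraries are also called controls and miR-99 KD libraries knockdown libraries. Library numbers follow the labels; read totals noted below the gene rows of some files number the libraries of a group the other way, and one such total, named as a Scr library, matches none of the libraries analysed here. The question the design asks is how transcript levels of engrafted LSK cells differ with the knockdown.

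Family members fall into 3 roles. Pro-survival proteins such as Bcl2, Bcl-xL and Mcl1 hold the outer mitochondrial membrane intact, pore formers such as Bak1 open it so that cytochrome c escapes, and BH3-only proteins sense stress and bind the pro-survival proteins in their groove. In blood stem cells Mcl1 is essential for survival, and forced Bcl2 raises the number of stem cells in mice. Much of the family's activity is set by phosphorylation, cleavage and protein turnover, which RNA levels do not show.

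The knocked-down microRNA belongs to a family whose members share a seed, the stretch at bases 2 to 8 that pairs with target transcripts. The mature sequences below, from RefSeq on GRCm38.p6, are shown because they fix the letters searched for in the family's transcripts. Capitals mark the seed, and all 3 seeds are the same.
mmu-miR-99a-5p: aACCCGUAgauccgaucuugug
mmu-miR-99b-5p: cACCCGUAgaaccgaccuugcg
mmu-miR-100-5p: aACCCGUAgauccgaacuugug
A match in a transcript reads TACGGGT for bases 2 to 8, or ACGGGTA for bases 2 to 7 followed by A, and these overlap where both are present. These letters were searched on the transcript strand only. None of the 10 members held either match in its longest 3′ untranslated region, which ran from 971 bases in Bbc3 to 5086 in Bcl2. None held one in the 3′ untranslated regions of its other protein-coding transcripts. Transcripts of other types, or with an incomplete annotated 3′ end, were not searched. Among 20346 genes with a 3′ untranslated region, 393, or 1.93%, held a match in the longest one, so with matches this rare 0 of 10 is near the background. No match says only that these letters are not in these regions.

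Gene counts per library ran from 27295197 to 32350590. Kit stood at 1149 and 1280 CPM (read counts brought to one library total after TMM scaling) in the controls and 670 and 774 in the knockdown libraries. Ly6a, which encodes Sca-1, stood at only 46.5 and 22.83 CPM in the controls and 12.36 and 22.25 in the knockdown libraries of this Sca-1-positive sort. Both genes thus lay lower in both knockdown libraries, Ly6a by a narrow margin, beside 26% of all genes tested. The part of this in the differences of the members was not tested. Markers of cells outside the gate were present and differed within the groups. All 12 neutrophil markers were measured, and their summed level was 8414 and 6290 CPM in the controls and 29450 and 5310 in the knockdown libraries. The summed level of 10 macrophage markers was 1718 and 659 CPM in the controls and 4161 and 963 in the knockdown libraries. Most of that sum was Lyz2, at 1214 and 457 CPM against 3620 and 610, and each of the 10 overlapped between the groups. The summed level of 10 B cell markers was 90.9 and 41.9 CPM in the controls and 306 and 88.5 in the knockdown libraries. Of these 10, 4 lay higher in both knockdown libraries, 0 lower and 6 overlapped, beside 24.5% higher of all genes tested. DESeq2 called 3 of them, all higher, beside 1.68% of all genes, and edgeR called 0. Their part in the differences of the members was not tested. In bulk RNA, fewer cells of a type and less RNA per cell cannot be told apart.

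None of the 10 members passed the main test, the quasi-likelihood test of edgeR at a Benjamini-Hochberg adjusted p of 0.05, which called 0 of 15320 genes, or 0%. At an unadjusted p under 0.05 edgeR counted 3 members, Bcl2 lower and Bid and Pmaip1 higher in miR-99 KD, beside 15.7% of all genes, 9.53% lower and 6.13% higher. DESeq2, the alternative test, called 2 members, Bcl2 lower and Pmaip1 higher, beside 5.85% of all genes, 4.16% lower and 1.68% higher. Both miR-99 KD libraries lay below both Scr libraries in 2 members, Bcl2 and Bbc3, and above them in 3, Bid, Pmaip1 and Bak1. Over all genes tested these shares were 26% and 24.5%, so 5 of 10 members outside the Scr range is close to the 50.5% found across the transcriptome. The median log2 difference was 0.09 over the members and 0.02 over all genes tested.

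**Figure D1:**
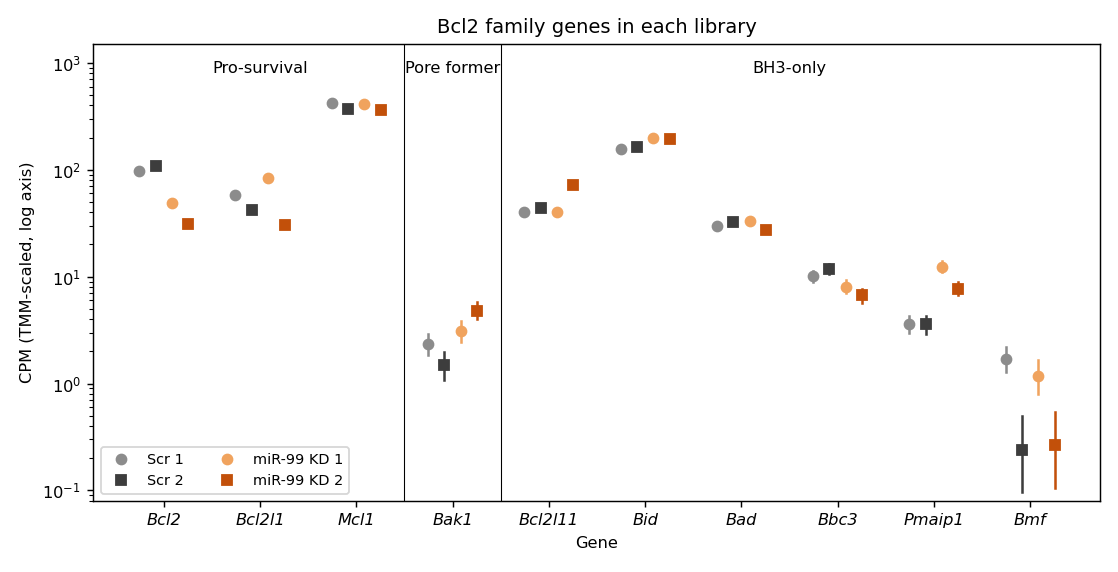
CPM of the 10 genes in each library on a log axis, grouped by role, with exact 95% Poisson intervals as vertical lines (counting error only). Bcl2 and Pmaip1 separate the groups by the widest gaps, Bcl2l1 spreads within miR-99 KD, and Bmf and Bak1 rest on few counts.

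Bcl2 (ENSMUSG00000057329), the founding pro-survival member, stood at 98.0 and 108 CPM in the controls and 48.5 and 30.9 in the knockdown libraries. The groups did not overlap, and every control held more Bcl2 than either knockdown library. The means were 103 ± 7.4 and 39.7 ± 12 CPM (SD, n = 2 per group). That is a log2 difference of -1.38 ± 0.25 (SE), or 2.60-fold less in miR-99 KD, with an edgeR adjusted p of 0.200 and a DESeq2 adjusted p of 7.9e-05. By unadjusted edgeR p, Bcl2 ranked 173 of 15320 genes. DESeq2's call was lost without Scr 2 and held without each other library. Each such fit leaves a group with a single library and takes no spread from that group. The counts of Bcl2, 822 to 3279 per library, give a counting error of 1.75% to 3.49%, far under the difference between the groups. The knockdown libraries also held fewer transcripts of stem cell genes: the summed level of 12 stem cell markers was 1110 and 943 CPM in the controls and 493 and 644 in the knockdown libraries. Of these 12 markers, 7 lay lower in both knockdown libraries, 1 higher and 4 overlapped, beside 26% lower and 24.5% higher of all genes tested. The list was chosen with earlier results of these data known, so these counts are no independent evidence of a shift. The part of the stem cell marker difference in the Bcl2 result was not tested. Of 10 markers of T and NK cells, which are also known for Bcl2, 5 passed the filter, and these summed to 222 and 229 CPM in the controls and 163 and 125 in the knockdown libraries. Most of that sum was Nkg7, a cytotoxic granule gene, at 207 and 194 CPM against 146 and 114. The T cell receptor component Cd3e had 5 and 0 counts in the controls and 38 and 0 in the knockdown libraries, and Gzma was at 0 in all 4. The part of these cells in the Bcl2 difference was not tested.

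Bcl2l1 (ENSMUSG00000007659), which encodes Bcl-xL and is known for keeping maturing red cells alive, showed no common direction. It stood at 58.2 and 42.4 CPM in the controls and 84.4 and 30.5 in the knockdown libraries, so that the knockdown libraries were the highest and the lowest of all. Its log2 difference of 0.19 carried an SE of 0.49 (n = 2 per group), with an edgeR adjusted p of 0.878. Leaving out miR-99 KD 2 gave 0.75, and leaving out miR-99 KD 1 gave -0.72. The order of the libraries, miR-99 KD 1, Scr 1, Scr 2 and miR-99 KD 2, is also the order of the summed neutrophil markers, whose part in it was not tested. Single neutrophil markers did not all follow this order. Elane did, at 904, 482, 470 and 274 CPM, whereas Ngp, at 10390, 2048, 1078 and 1337 CPM, did not. Globin genes took 0.354%, 0.324%, 0.0814% and 0.105% of gene counts in that order. Counts per gene do not separate the long, protective splice form of Bcl2l1 from the short one, which promotes death, and the same holds for Mcl1.

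Mcl1 (ENSMUSG00000038612), a short-lived protein on which blood stem cells depend, was the most abundant member by CPM and had the log2 difference closest to 0. The controls held 424 and 368 CPM and the knockdown libraries 415 and 365. The groups overlapped, and the difference of -0.02 ± 0.14 on the log2 scale (SE, n = 2 per group) had an edgeR adjusted p of 0.956. In the 4 libraries its rank by CPM among all genes tested was 270, 370, 328 and 439.

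Bak1 (ENSMUSG00000057789), a pore former, was among the lowest members. The controls held 78 and 43 counts, or 2.33 and 1.48 CPM, and the knockdown libraries 81 and 128 counts, or 3.07 and 4.82 CPM. Both knockdown libraries lay above both controls, but the exact 95% Poisson intervals of Scr 1, 1.84 to 2.91 CPM, and miR-99 KD 1, 2.44 to 3.82 CPM, overlapped. On the log2 scale the difference was 1.05 ± 0.48 (SE, n = 2 per group), and the adjusted p was 0.365 by edgeR and 0.362 by DESeq2.

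Pmaip1 (ENSMUSG00000024521) encodes Noxa, a BH3-only protein that binds Mcl1 and is a known target of p53. It stood at 3.62 and 3.57 CPM in the controls and 12.4 and 7.68 in the knockdown libraries. The Scr libraries were nearly equal, and both knockdown libraries were above them, by different amounts. The means were 3.59 ± 0.032 and 10.1 ± 3.4 CPM (SD, n = 2 per group), a log2 difference of 1.48 ± 0.36 (SE), or 2.80-fold more. The edgeR adjusted p was 0.223 and the DESeq2 adjusted p 0.0255. DESeq2's call held without miR-99 KD 2 and was lost without each other library. Each such fit leaves a group with a single library and takes no spread from that group. The log2 difference itself stayed between 1.09 and 1.79 in edgeR without each library in turn. Erythroid markers, 13 genes, summed to 10100 and 9615 CPM in the controls and to 14510 and 16490 in the knockdown libraries. Car1 and Car2 together made up most of each sum. Of the 13, 10 lay higher in both knockdown libraries, beside 24.5% of all genes tested, and 3 overlapped, Hbb-bt, Hba-a1 and Alas2. DESeq2 called 6, all higher, beside 1.68% of all genes, and edgeR called 0. Pmaip1, Bid and Bak1 were also higher there, and the part of the erythroid markers in these differences was not tested.

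Bbc3 (ENSMUSG00000002083) encodes Puma, the other BH3-only protein best known as a p53 target, and lay on the opposite side. The controls held 10.04 and 11.8 CPM and the knockdown libraries 8.07 and 6.67, so that both knockdown libraries lay below both controls. The exact 95% Poisson intervals of Scr 1, from 8.996 CPM upward, and of miR-99 KD 1, up to 9.23 CPM, touched. The difference was -0.57 ± 0.27 on the log2 scale (SE, n = 2 per group), and its edgeR adjusted p was 0.376.

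Bid (ENSMUSG00000004446), which caspase-8 cleaves to link death receptors to mitochondria, was the most abundant pro-death member. It stood at 156 and 162 CPM in the controls and 198 and 195 in the knockdown libraries. The libraries of each group nearly coincided, at 159 ± 3.7 and 196 ± 2.6 CPM (SD, n = 2 per group). The log2 difference was 0.30 ± 0.12 (SE), or 1.24-fold more, and the adjusted p was 0.318 by edgeR and 0.218 by DESeq2. The difference ran from 0.25 to 0.32 without each library in turn, the narrowest range of any member, and was 0.22 with scaling by library totals only.

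Bcl2l11 (ENSMUSG00000027381) encodes Bim, which binds every pro-survival protein and is induced when growth factors are withdrawn. It stood at 40.5 and 44.2 CPM in the controls and 40.6 and 72.2 in the knockdown libraries. Only miR-99 KD 2 stood apart, with miR-99 KD 1 within the Scr range. Its log2 difference of 0.41 carried an SE of 0.30 (n = 2 per group), with an edgeR adjusted p of 0.534. Leaving out miR-99 KD 2 gave -0.06, and leaving out miR-99 KD 1 gave 0.77, so the difference rests on miR-99 KD 2.

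Bad (ENSMUSG00000024959), which survival kinases switch off by phosphorylation, overlapped between the groups. The controls held 29.9 and 32.2 CPM and the knockdown libraries 33.5 and 27.5, which differ by -0.03 ± 0.19 on the log2 scale (SE, n = 2 per group; edgeR adjusted p 0.959). Bmf (ENSMUSG00000040093), a BH3-only protein tied to the cytoskeleton, was the lowest member, with 57 and 7 counts in the controls and 31 and 7 in the knockdown libraries. Library 1 of each group was high and library 2 low, at 1.70 and 0.240 CPM in the controls and 1.18 and 0.264 CPM with the knockdown. With 7 counts the exact 95% Poisson interval ran from 0.0966 to 0.495 CPM in Scr 2, and the libraries of one group differed by more than the group means did. The edgeR adjusted p of Bmf was 0.890, and DESeq2 gave it no adjusted p.

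**Figure D2:**
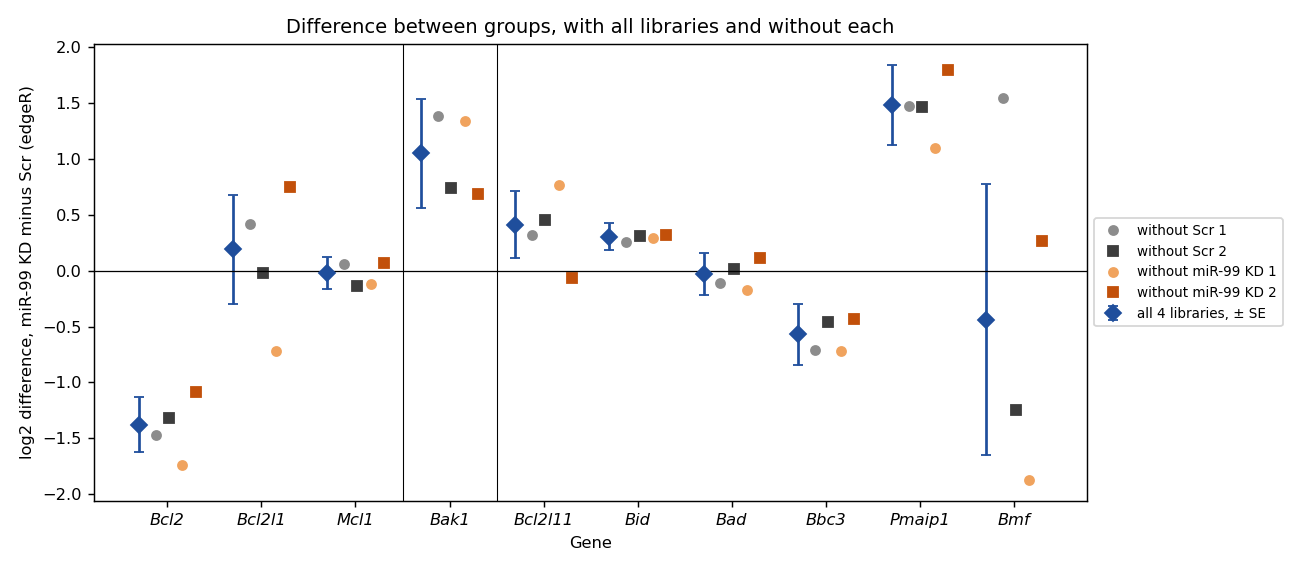
Log2 difference between miR-99 KD and Scr from edgeR for each gene, with all 4 libraries (diamonds, ± SE) and without each library in turn. Bcl2, Bbc3, Bid, Pmaip1 and Bak1 kept their sign in all of these fits, and the other 5 genes crossed 0.

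Levels were set against each other per kilobase of annotated exon. On that scale Mcl1 made up 57.6% and 53.9% of the summed level of the 10 genes in the controls and 53.0% and 53.6% in the knockdown libraries. Bid came second, at 20.4% and 22.8% in the controls and 24.4% and 27.5% with the knockdown, and these 2 genes alone held most of the pool in every library. Bcl2 made up 4.96% and 5.92% of the pool in the controls and 2.31% and 1.70% in the knockdown libraries. Pmaip1, at the other end, made up 0.614% and 0.653% in the controls and 1.99% and 1.41% in the knockdown libraries. The exonic length joins all annotated transcripts of a gene, 9157 bases for Bcl2 and 3418 for Mcl1, so the order of levels between genes depends on it, whereas a gene's own change between libraries does not.

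**Figure D3:**
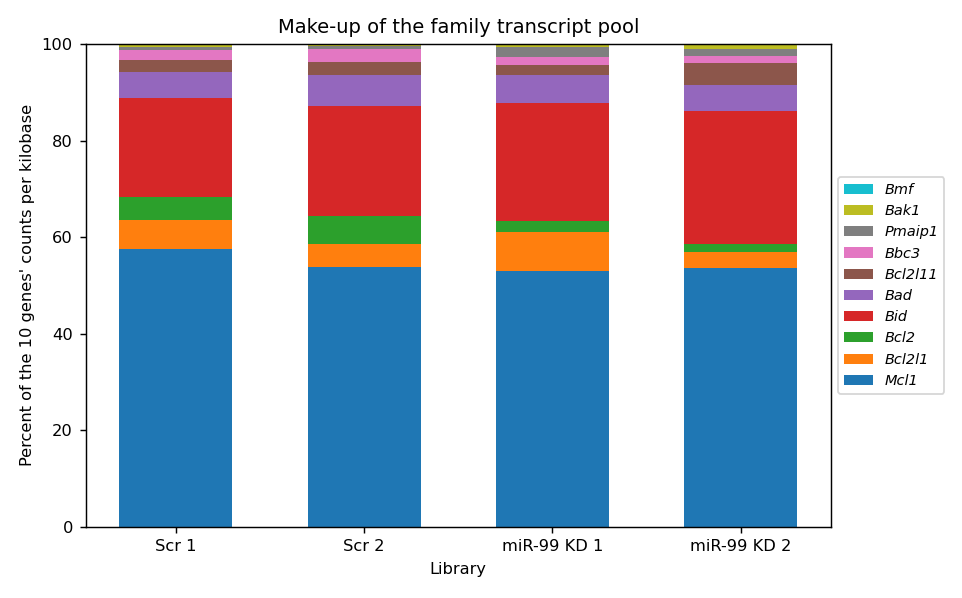
Share of each gene in the summed counts per kilobase of the 10 genes, as percent, for each library. Mcl1 and Bid fill most of every bar, and the Bcl2 band is thinner in both knockdown bars than in both control bars.

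Pro-survival and pro-death genes were compared as ratios within each library, which do not depend on how libraries were scaled. The summed pro-survival level per kilobase, of Bcl2, Bcl2l1 and Mcl1, was 2.17 times the summed level of the 7 pro-death genes in Scr 1 and 1.81 times in Scr 2. In miR-99 KD 1 and 2 it was 1.73 and 1.42 times. The 7 are not all pro-death genes of the family, so the ratio holds for the listed genes only. Both knockdown libraries were thus lower, but Scr 2 and miR-99 KD 1 were closer to each other than to the other library of their own group. On the log2 scale the groups differed by -0.34 per kilobase and by -0.47 in counts without division by length. Without Mcl1, which made up most of the pool, the ratio was 0.343 and 0.296 in the controls and 0.283 and 0.122 in the knockdown libraries, a log2 difference of -0.78 per kilobase and -1.05 in counts that rests mostly on miR-99 KD 2. With 2 libraries against 2 and members chosen by name, no test of the sum is given.

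Of 21 ratios of a pro-survival to a pro-death gene, 10 were lower in both knockdown libraries than in both controls, 1 was higher and 10 overlapped. These ratios share genes and are not separate results, and no share over ratios of other genes was computed. Of single genes tested, which is another measure, 50.5% lay outside the Scr range, 26% lower and 24.5% higher. Bcl2 gave 6 of the 10 lower ones, over every pro-death gene other than Bmf, whereas Bcl2l1 gave 1 and Mcl1 gave 3. The ratio of Bcl2 to Bcl2l11 was 2.12 and 2.15 in the controls and 1.05 and 0.376 in the knockdown libraries. Bcl2 transcripts per kilobase were thus above those of Bim in both controls, level with them in one knockdown library and below them in the other. The ratio of Bcl2 to Pmaip1 was 8.08 and 9.06 in the controls and 1.16 and 1.20 in the knockdown libraries, the widest gap of the 21 on the log2 scale, at -2.85. Mcl1 to Pmaip1, the pair whose proteins bind each other, was 93.7 and 82.4 in the controls and 26.7 and 38.0 in the knockdown libraries. The single higher ratio was Mcl1 to Bbc3, at 26.2 and 19.3 in the controls and 31.9 and 34.1 in the knockdown libraries. Within the pro-survival genes, Bcl2 to Bcl2l1 was 0.844 and 1.28 in the controls and 0.288 and 0.508 in the knockdown libraries.

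**Figure D4:**
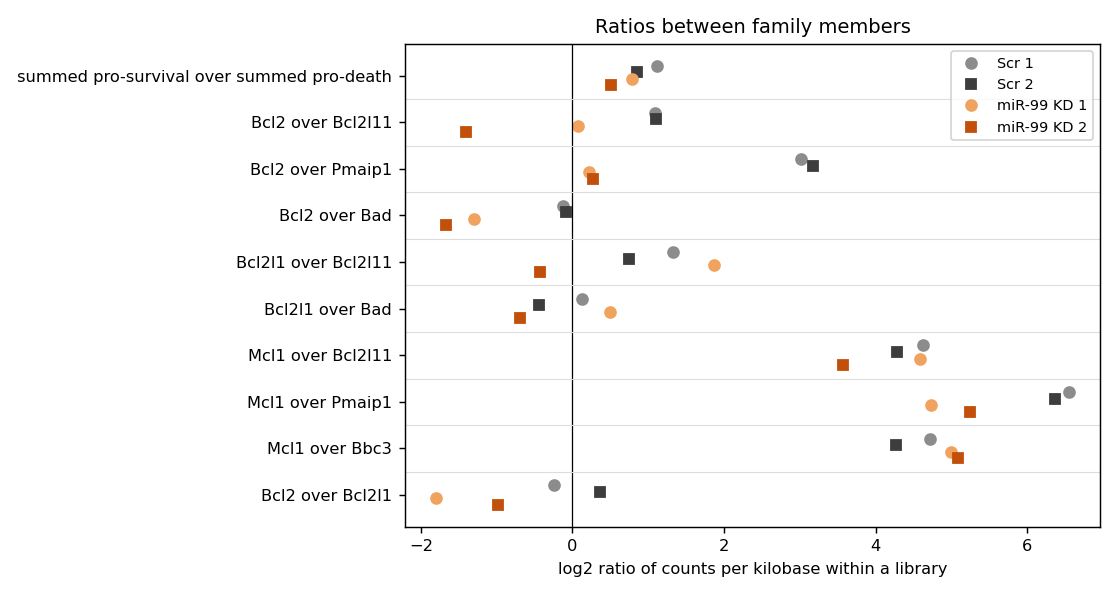
Log2 ratio of counts per kilobase between family genes within each library, with the summed ratio at the top. The plotted ratios of Bcl2 over a pro-death gene and of Bcl2 or Mcl1 over Pmaip1 separate the groups, while Bcl2l1 over Bcl2l11 or Bad overlaps between them.

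Of 15 other Bcl2 family genes, 10 passed the filter, and neither edgeR nor DESeq2 called any. Bok, a further pore former, stood at 9.41 and 10.4 CPM in the controls and 4.93 and 4.52 in the knockdown libraries. The difference was -1.07 ± 0.28 on the log2 scale (SE, n = 2 per group), and the adjusted p was 0.231 by edgeR and 0.0631 by DESeq2. Bnip3, a mitophagy receptor, stood at 25.8 and 24.7 CPM in the controls and at 16.9 and 15.1 in the knockdown libraries. Bok and Bnip3 thus lay lower in both knockdown libraries, as did Bcl2l14, at 4.75 and 3.71 CPM in the controls and 0.417 and 2.86 in the knockdown libraries. Bcl2l2, which encodes the pro-survival Bcl-w, was the only one of the 10 above both controls, with 20 and 12 counts in the controls and 48 and 40 in the knockdown libraries. So 3 of the 10 lay lower and 1 higher, beside 26% and 24.5% of all genes tested. The near-identical Bcl2a1 copies held 0 to 43 counts each per library and are uncertain, since reads that fit several copies are set aside in counting.

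Downstream of the mitochondria, the caspase cascade and apoptosome list had 13 genes tested, of which 5 lay higher in both knockdown libraries, 1 lower and 7 overlapped. Over all genes tested, 24.5% lay higher and 26% lower, so 6 of 13 outside the Scr range is close to the 50.5% of all genes. Neither test called any. At an unadjusted p under 0.05 edgeR counted 2 higher and 0 lower, beside 6.13% higher and 9.53% lower of all genes tested. Dffb, the nuclease that cuts DNA in apoptosis, was 1 of the 2. It stood at 37.1 and 32.7 CPM in the controls and 45.6 and 48.4 in the knockdown libraries. Endog, a mitochondrial nuclease, stood at 12.2 and 13.4 CPM in the controls and 17.4 and 19.2 in the knockdown libraries. The median log2 difference of the list was 0.19.

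Among 8 genes of caspase inhibitors and inhibitor of apoptosis proteins, edgeR counted 2 lower and 0 higher at an unadjusted p under 0.05. Over all genes tested, 9.53% were lower and 6.13% higher at that threshold. By CPM, 2 of the 8 lay lower in both knockdown libraries, 2 higher and 4 overlapped, beside 26% and 24.5% of all genes. Neither test called any of the 8 after adjustment. Cflar, which blocks caspase-8 at death receptors, stood at 41.1 and 55.3 CPM in the controls and at 30.9 and 23.5 in the knockdown libraries, with a DESeq2 adjusted p of 0.0541. Naip5, better known as a sensor of bacterial flagellin, stood at 25.3 and 22.3 CPM in the controls and 13.6 and 15.7 in the knockdown libraries. Xiap, the direct caspase inhibitor, lay on the other side, at 18.5 and 11.9 CPM in the controls and 21.6 and 24.8 in the knockdown libraries. Of 12 death receptor genes, 11 were tested, 3 lay lower in both knockdown libraries and 1 higher, beside 26% and 24.5% of all genes, with a median log2 difference of -0.13. Mlkl, the membrane-breaking effector of necroptosis, stood at 67.0 and 63.3 CPM in the controls and 47.3 and 39.4 in the knockdown libraries, and Casp8, the caspase that cleaves Bid, at 139 and 157 in the controls and 116 and 108 in the knockdown libraries. Ripk3, the kinase upstream of Mlkl, was the other lower one, at 93.0 and 95.5 CPM in the controls and 79.9 and 63.5 in the knockdown libraries, and Fadd, the adaptor that recruits caspase-8, was the higher one, at 9.74 and 10.1 in the controls and 14.02 and 14.9 in the knockdown libraries. Neither test called any gene of these lists.

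Genes whose products work beside the family were mostly not called. Of 4 other genes of the outer mitochondrial membrane, Vdac1, Vdac2 and Vdac3 were higher in both knockdown libraries and Mtch2 overlapped. That is 3 of 4, beside 24.5% of all genes tested, with a median log2 difference of 0.26, and none was called. Vdac2, the channel that brings Bak1 to mitochondria, stood at 251 and 226 CPM in the controls and at 289 and 352 in the knockdown libraries. Of 5 enzymes that control Mcl1 turnover, 2 were higher, 1 lower and 2 overlapped, again close to the share over all genes, and none reached an unadjusted p under 0.05 in edgeR. Of 12 transcription factors tested that are known to act on family genes, DESeq2 called 2, both higher, beside 5.85% of all genes, 1.68% higher. By CPM 4 of the 12 lay lower in both knockdown libraries, 4 higher and 4 overlapped, beside 26% and 24.5% of all genes tested. Gata1, the red cell factor known to induce Bcl2l1, stood at 176 and 183 CPM in the controls and 281 and 246 in the knockdown libraries, and the adjusted p was 0.0169 by DESeq2 and 0.223 by edgeR. Ddit3, a stress factor known to repress Bcl2 and to induce Bcl2l11, stood at 16.5 and 14.9 CPM in the controls and 26.2 and 26.7 in the knockdown libraries, and the adjusted p was 0.0362 by DESeq2 and 0.227 by edgeR. At an unadjusted p under 0.05 edgeR counted 2 of the 12 lower and 2 higher, beside 9.53% and 6.13% of all genes tested. Stat3 and Nfkb1 were the 2 lower ones, Stat3 at 196 and 226 CPM in the controls and 166 and 111 in the knockdown libraries.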

How the data were processed

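Total RNA of sorted cells was extracted with Trizol LS and amplified by SMARTer, per the labels' protocols. The authors deposited whole-number read counts for each Ensembl gene, with a separate file for each library. STAR, Picard, HTSeq and DESeq2 and the build mm9 are named in the submitters' processing notes. Versions, annotation release and strand setting are not given there, so a gene and an antisense neighbour may share reads. Rows that name no gene stayed out of library sizes; reads without a feature made up 8.31% to 13.8% of all reads and those with several alignments 18.0% to 21.9%. Of 45232 gene rows, 44585 matched a symbol in the reference table. Exon lengths and 3′ untranslated regions of at least 50 bases came from GENCODE M21, on a later build, so no coordinates are printed.

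The main test was edgeR 4.0.16 in R 4.3.3 (robust quasi-likelihood F test, filterByExpr, TMM, group only), with Benjamini-Hochberg adjustment over 15320 genes. The SE of a log2 difference is its size divided by the square root of F. DESeq2 1.42.0 on the same genes and limma 3.58.1 (voom) were alternatives; DESeq2 left 2674 genes without an adjusted p. Tests were tried on simulated counts with known changes. PCR copies are not marked, so Poisson intervals cover counting error only. The labels give 2 mice per group, and p-values measure the spread between these libraries.

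All 10 members are described. Of each other apoptosis list up to 4 genes with the smallest edgeR p were open to naming. The members and lists were chosen with earlier results of these data known. The values of 1 gene counted in the pathway lists are not reported here.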

Additional observations from a re-analysis of the deposited data

How the results depend on the processing

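What causes the changes in this section was not tested. Genes called numbered 0 in edgeR with all 4 libraries, with limma-voom, with each other scaling, with a minimum of 10 CPM in 2 libraries, without mitochondrial, ribosomal protein and globin genes, and at an adjusted p of 0.10. DESeq2 called 896 genes and 2 members, edgeR without a filter 873 and 2, which were again Bcl2 and Pmaip1, and an unadjusted p under 0.05 counted 2399 and 3. Without each library in turn edgeR called 0 to 1033 genes and 0 to 2 members. The 1033 and 310 calls came without miR-99 KD 1 and 2, where the spread is that of the Scr pair and the lone library is assumed to vary like it. DESeq2 called 129 genes and 1 member without Scr 1, 27 and 0 without Scr 2, 1547 and 2 without miR-99 KD 1, and 840 and 2 without miR-99 KD 2. With a library left out, 2 to 5 members were lower and 4 to 5 higher in the knockdown, where fewer libraries have to be cleared.

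Without each library the log2 difference changed sign for 5 members. In edgeR it ran from -0.72 to 0.75 for Bcl2l1, where it was -0.02 without Scr 2, and from -0.13 for Mcl1 to 0.058 without Scr 1 and 0.069 without miR-99 KD 2. For Bcl2l11 it ran from -0.06 to 0.77, for Bad from -0.18 to 0.02 without Scr 2 and 0.11 without miR-99 KD 2, and for Bmf from -1.87 to 0.27 without miR-99 KD 2 and 1.55 without Scr 1. In DESeq2 the reversed values were -0.009 and -0.72 for Bcl2l1, 0.070 without Scr 1 and without miR-99 KD 2 for Mcl1, -0.062 for Bcl2l11, 0.034 and 0.11 for Bad, and 0.28 and 1.57 for Bmf. Bcl2, Bbc3, Bid, Pmaip1 and Bak1 kept their sign under every alternative that tested them, and the 10 CPM minimum left out Pmaip1, Bak1 and Bmf.

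The deviations of same-numbered libraries from their group means had a correlation of 0.06, and the labels name nothing that a number shares, so no pairing of mice was assumed. With the replicate block edgeR called 0 genes and 0 members. DESeq2 with the replicate block called 391 genes and 1 member, Bcl2, at an adjusted p of 2.7e-04.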
